A study of Bos taurus with 47 samples.

Results

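Transcript levels of the insulin-like growth factors IGF2 and IGF1, of the receptors IGF1R and IGF2R, and of the growth hormone receptor GHR were followed in bovine Longissimus muscle. The genes were taken by Ensembl cattle identifier, ENSBTAG00000013066 (IGF2), ENSBTAG00000011082 (IGF1), ENSBTAG00000021527 (IGF1R), ENSBTAG00000002402 (IGF2R) and ENSBTAG00000001335 (GHR), and all 5 were among the 27607 identifiers of the count tables. The tables carry no symbols. A RefSeq gene table (assembly ARS-UCD2.0) lists all 5 symbols but matches 0 of the 5 identifiers, so the names were not checked against an annotation. The expression of marker genes of muscle and of other cell types was not analysed here for the same reason, and the tissue is given as labelled.

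The animals descend from crossbred Angus heifers (F0) held in early gestation, to day 84, at a low gain (LG, 0.28 kg per day) or a moderate gain (MG, 0.79 kg per day), and then run as a single group. Newborn F1 heifer calves gave Longissimus thoracis muscle, taken before suckling (8 LG and 8 MG libraries). Grown F1 heifers at slaughter gave 8 LG and 7 MG libraries as labelled, and the protocol text, which was not followed, has these numbers the other way round. F2 fetuses of day 84, named LG or MG by the gain of their F0 granddam, gave dissected Longissimus dorsi (8 LG and 8 MG libraries). F1 heifers of both treatments were managed alike. No animal identity is stated for the numbers in the library names, so the spread is that between libraries.

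IGF2 and IGF1 are secreted ligands that act mainly through IGF1R, a receptor tyrosine kinase that drives growth and survival of muscle cells. IGF2R, also known as the cation-independent mannose 6-phosphate receptor, binds IGF2 and carries it to the lysosome for breakdown. GHR receives growth hormone and signals through JAK2 and STAT5, and in postnatal life raises IGF1 output, above all in liver. IGF2 is known as the main fetal ligand and is imprinted in mammals, and IGF1 and GHR are known for postnatal growth.

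Total counts ran from 13308433 to 32547565 over the 47 libraries. Levels are given in CPM, the count relative to the size of the library, with library sizes scaled by edgeR's trimmed mean of M-values (TMM). These levels compare 1 gene across libraries and not 1 gene with another, since gene lengths were not used. The TMM factors were 1.19 to 1.93 in fetuses, 0.723 to 1.08 at birth and 0.731 to 0.938 at slaughter, so the scaling itself differed between fetal and F1 libraries. Among fetuses, MG 20 lay farthest out on the first principal component, which held 40.7% of the fetal variance, and LG 41 lay next. Many results that rest on fetuses, though not all, are given with and without MG 20 where a call, a sign or the size of a value changed. In bulk muscle, fewer cells of a type and less RNA per cell cannot be told apart.

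**Figure D1:**
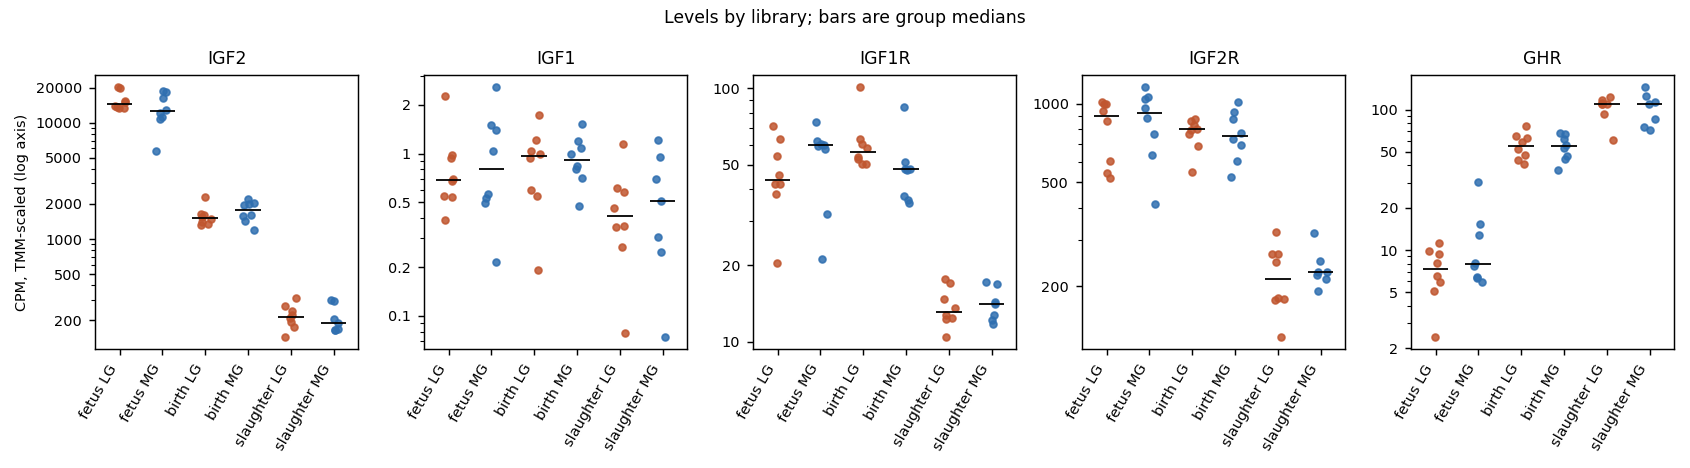
Level of each gene in each of the 47 libraries (CPM on TMM-scaled library sizes, log axis with its own range for each gene), by stage and by LG (orange) or MG (blue), where each point is a library and the bar is the group median. IGF2 steps down and GHR steps up from fetus to birth to slaughter, and under this scaling IGF1R and IGF2R are lower at slaughter than at both other stages, while by library totals alone newborns also lie below fetuses.

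The comparison of stages asked how each gene's level differed between fetal, newborn and grown muscle. IGF2 fell at each step and GHR rose at each step. IGF1R and IGF2R missed the threshold between fetus and birth under TMM scaling, passed as lower at birth by library totals alone, and fell between birth and slaughter, and IGF1 gave few counts throughout. With edgeR's quasi-likelihood test and Benjamini-Hochberg adjustment over all genes, 2 of the 5 genes passed for birth against fetus, where 81.9% of 14820 tested genes passed. All 5 passed for slaughter against birth, where 70.2% of 13369 genes passed, and all 5 for slaughter against fetus, where 83.4% of 14960 genes passed. The counts of genes passed are therefore no sign of anything particular to the growth factor axis, and the sizes of the differences carry the description. How many of all genes had fold changes as large was not counted, so these sizes are not called unusual.

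IGF2 was measured with 2165 or more counts in every library. In fetuses its level ran from 5678 CPM in MG 20 to 20210 CPM in LG 41, with a median of 13716 and a mean of 14382 ± 3749 (SD, n = 16). At birth it ran from 1190 to 2299 CPM, with a median of 1588 and a mean of 1666 ± 335 (SD, n = 16). At slaughter it ran from 144 to 313 CPM, with a median of 207 and a mean of 217 ± 54.4 (SD, n = 15). The ranges of the stages did not overlap at either step: the lowest fetus stood above the highest newborn, and the lowest newborn above the highest grown heifer. Non-overlap was seen in 32.1% of genes tested for birth against fetus and in 13.7% for slaughter against birth.

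The IGF2 log2 fold change was -3.07 at birth against fetus (SE 0.14, 95% interval -3.36 to -2.78, edgeR adjusted p = 5.01e-20), which is 8.42-fold lower. At slaughter against birth it was -2.92 (SE 0.13, interval -3.18 to -2.66, edgeR adjusted p = 6.11e-19), 7.58-fold lower. Over the whole span from fetus to slaughter the log2 fold change was -5.99 (SE 0.18, interval -6.36 to -5.62, edgeR adjusted p = 5.37e-24), 63.5-fold lower. Under TMM the intervals of the 2 steps overlap, while by library totals alone the earlier step, -3.92 (SE 0.126), was larger than the later one, -3.03 (SE 0.129), and the difference between steps was not tested. The 3 stage comparisons share libraries and are not independent of each other.

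The weight of IGF2 in the library was large enough to state as a share. Before any scaling, IGF2 took 2.11% ± 0.385 of all counts in a fetal library (SD, n = 16), from 1.10% in MG 20 to 2.71%. It took 0.140% ± 0.0330 at birth (n = 16) and 0.0171% ± 0.00418 at slaughter (n = 15). By library totals alone the IGF2 log2 fold change was -6.95 at slaughter against fetus, larger than under TMM. The direction was the same under every scaling tried.

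IGF1 gave few counts at every stage. Its counts ran from 5 to 78 in fetuses, from 3 to 25 at birth and from 1 to 20 at slaughter, where LG 02 and MG 32 had 1 count each. The limit of 3 counts per library corresponded to between 0.0949 and 0.259 CPM. The mean level was 0.960 ± 0.669 CPM in fetuses (SD, n = 16), with a lowest value of 0.216, a median of 0.686 and a highest of 2.57 in MG 20. At birth it was 0.928 ± 0.386 CPM (n = 16), from 0.193 to 1.72 with a median of 0.964. At slaughter it was 0.524 ± 0.352 CPM (n = 15), from 0.0743 to 1.20 with a median of 0.462. The ranges of all stages overlapped.

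Over all libraries of a stage, the fetuses had 432 IGF1 counts, the newborns 230 and the grown heifers 124. The level of these sums was 0.995 CPM in fetuses (exact Poisson 95% interval 0.903 to 1.09), 0.929 CPM at birth (0.813 to 1.06) and 0.538 CPM at slaughter (0.447 to 0.641), where the intervals cover counting error only. At birth against fetus the IGF1 log2 fold change was -0.03 (SE 0.30, interval -0.64 to 0.58, edgeR adjusted p = 0.933). At slaughter against birth it was -0.78 (SE 0.30, interval -1.39 to -0.17, edgeR adjusted p = 0.0212), and at slaughter against fetus -0.81 (SE 0.36, interval -1.54 to -0.08, edgeR adjusted p = 0.0383). IGF1 thus passed as lower at slaughter, close to the threshold. The call against fetuses was lost on leaving out any of 12 libraries in turn: fetal MG 20 (-0.61, edgeR adjusted p = 0.0945), LG 29 (-0.63), MG 23 (-0.78) or MG 32 (-0.77), or slaughter LG 02, LG 07, LG 22, LG 41, MG 20, MG 23, MG 32 or MG 45 (-0.71 to -0.79, edgeR adjusted p from 0.0520 to 0.0634). The call against newborns held with each library left out in turn. With MG libraries alone the value was -0.72 (edgeR adjusted p = 0.142), and with LG libraries alone IGF1 fell under the filter and was not tested.

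IGF1R, the signalling receptor of both ligands, had 146 or more counts in every library. It averaged 50.1 ± 16.3 CPM in fetuses (SD, n = 16), from 20.5 in LG 41 and 21.3 in MG 20 to 73.8, with a median of 55.9. At birth it averaged 54.9 ± 17.1 CPM (n = 16), from 35.5 to 101.3, with a median of 50.7. The highest newborn levels, 101.3 CPM in LG 05 and 84.5 CPM in MG 21, stood apart from their groups. At slaughter the level was 14.02 ± 2.28 CPM (n = 15), from 10.5 to 17.7, with a median of 13.5. Fetal and newborn ranges overlapped in part: fetal LG 41, MG 20 and MG 45 lay below every newborn, and newborn LG 05 and MG 21 lay above every fetus. Every slaughter library lay below every fetal and newborn one.

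The IGF1R log2 fold change was 0.16 at birth against fetus (SE 0.15, interval -0.14 to 0.47, edgeR adjusted p = 0.318). It was -1.94 at slaughter against birth (SE 0.11, interval -2.17 to -1.70, edgeR adjusted p = 9.67e-16), 3.83-fold lower. At slaughter against fetus it was -1.76 (SE 0.15, edgeR adjusted p = 8.94e-13), 3.40-fold lower. Of the steps from fetus to birth and from birth to slaughter, the later one passed under TMM scaling, while by library totals alone both passed as lower.

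IGF2R, the clearance receptor of IGF2, followed the same course. It averaged 835 ± 227 CPM in fetuses (SD, n = 16), from 414 in MG 20 to 1158, with a median of 908. At birth it averaged 768 ± 134 CPM (n = 16), from 525.7 to 1017, with a median of 783. At slaughter it averaged 228 ± 53.6 CPM (n = 15), from 128 to 323, with a median of 227. The fetal range contained the newborn range, and the slaughter range lay below both.

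The IGF2R log2 fold change was -0.08 at birth against fetus (SE 0.12, interval -0.33 to 0.17, edgeR adjusted p = 0.527). It was -1.73 at slaughter against birth (SE 0.11, interval -1.96 to -1.51, edgeR adjusted p = 7.16e-15), 3.33-fold lower, and -1.81 at slaughter against fetus (SE 0.14, edgeR adjusted p = 2.17e-13), 3.50-fold lower. In the RefSeq table the IGF2R gene overlaps AIRN, a long non-coding RNA, IGF2 holds the microRNA gene MIR483, and IGF1R overlaps PGPEP1L and long non-coding RNAs. IGF1 and GHR each overlap a long non-coding RNA. These are overlaps of gene spans, and exons were not compared. The libraries do not mark strand, and whether reads of such partners were counted with the genes named was not tested.

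GHR, the receptor of growth hormone, was the one of the 5 genes that rose at both steps. In fetuses it averaged 9.48 ± 6.43 CPM (SD, n = 16), from 2.41 in LG 41 to 30.5 in MG 20, with a median of 7.89. At birth it averaged 55.1 ± 11.2 CPM (n = 16), from 37.4 to 76.5, with a median of 54.7. At slaughter it averaged 104 ± 22.4 CPM (n = 15), from 60.4 to 145, with a median of 110. Every newborn library lay above every fetal one, MG 20 included. Newborn and slaughter ranges overlapped through LG 07, MG 20 and MG 32 at slaughter, and the slaughter library was the higher in 96.7% of the pairs made of 1 newborn and 1 slaughter library.

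The GHR log2 fold change was 2.59 at birth against fetus (SE 0.21, interval 2.16 to 3.03, edgeR adjusted p = 3.58e-13), 6.03-fold higher. It was 0.93 at slaughter against birth (SE 0.11, interval 0.70 to 1.16, edgeR adjusted p = 1.19e-08), 1.905-fold higher, and 3.53 at slaughter against fetus (SE 0.23, interval 3.064 to 3.999, edgeR adjusted p = 1.58e-15), 11.6-fold higher. The interval of the earlier step lies above that of the later one, and the difference between the steps was not tested. Without fetal MG 20 the rise from fetus to birth was 2.77. For birth against fetus without MG 20, IGF1 was 0.12, IGF1R 0.07 and IGF2R -0.17, none of which passed. In slaughter against fetus the ranges of IGF2, IGF1R, IGF2R and GHR did not overlap, as for 35.9% of the genes tested.

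**Figure D2:**
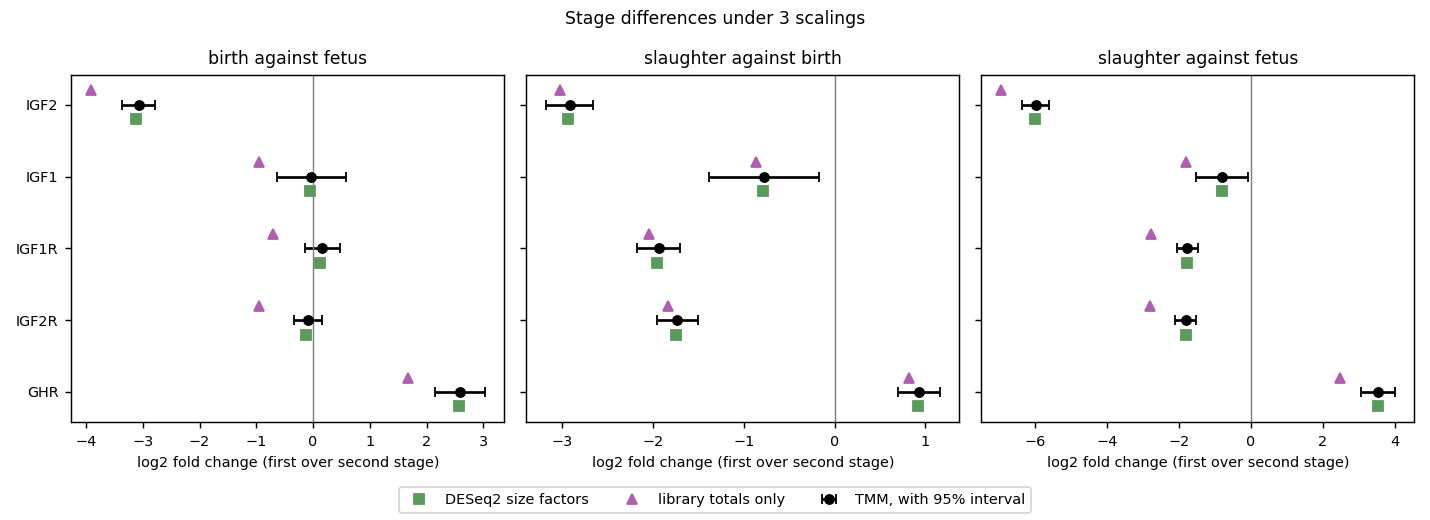
Log2 fold change of each gene between stages, first named over second, under TMM scaling (black points, with 95% intervals from edgeR), DESeq2 size factors (green squares) and library totals only (purple triangles). The first and last panels show all genes shifted to lower values by library totals alone, by which IGF1R at birth against fetus goes from 0.16 to -0.71.

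The scaling of the libraries decided what was read for the genes with small differences between fetus and birth. For birth against fetus, all genes tested had a median log2 fold change of -0.12 under TMM, -0.16 with DESeq2 size factors and -1.004 with library totals alone. By library totals alone IGF1 (-0.95, edgeR adjusted p = 0.00885), IGF1R (-0.71, edgeR adjusted p = 0.000169) and IGF2R (-0.96, edgeR adjusted p = 5.46e-09) passed as lower at birth, so that all 5 genes passed. These values lay close to the shift of all genes. IGF2 at -3.92 and GHR at 1.67 kept their directions. For slaughter against fetus the median moved from -0.16 to -1.15, and the 5 genes kept their directions. For slaughter against birth the median was 0.05 under TMM and -0.05 by library totals. Stage, generation, the labelled muscle and any library batch cannot be told apart between fetus and F1 animals. Between newborn and slaughter libraries, stage and any library batch cannot be told apart either, since the tables of all stages were deposited separately.

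The median log2 fold change of the 5 genes was -0.03 at birth against fetus, -1.73 at slaughter against birth and -1.76 at slaughter against fetus, beside 0.05 for all genes at slaughter against birth and the values above for the others.

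A ratio of 2 genes within a library does not depend on how libraries are scaled. The log2 ratio of IGF2 to IGF1 counts was 14.1 ± 1.26 in fetuses (SD, n = 16), 10.9 ± 0.671 at birth (n = 16) and 8.87 ± 1.20 at slaughter (n = 15), where 0.5 was added to each count. Only differences of such ratios between groups are interpretable, since transcript lengths enter the ratio itself. The ratio was lower by 3.19 at birth than in fetuses on the log2 scale (difference -3.19, permutation adjusted p = 3.6e-05, raw p = 1e-05, the smallest that 100000 resamples can give). From birth to slaughter the difference was -1.997 (permutation adjusted p = 6e-05), and from fetus to slaughter -5.19. All p-values for ratios are two-sided and adjusted over 18 comparisons.

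The log2 ratio of IGF2 to its clearance receptor IGF2R was 4.11 ± 0.437 in fetuses, 1.11 ± 0.371 at birth and -0.07 ± 0.5002 at slaughter. The ranges of fetuses, 3.54 to 5.22, and newborns, 0.23 to 1.496, did not overlap. The range at slaughter, -0.88 to 1.04, overlapped that of newborns. How many ratios of other genes had ranges without overlap was not counted. The differences were -3.00 from fetus to birth and -1.18 from birth to slaughter (permutation adjusted p = 3.6e-05 each). IGF2 thus fell relative to IGF2R at both steps whatever the library scaling.

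The log2 ratio of IGF1 to IGF1R was -5.86 ± 1.08 in fetuses, -5.92 ± 0.928 at birth and -4.95 ± 1.17 at slaughter. The difference was -0.05 from fetus to birth (permutation adjusted p = 0.899). From birth to slaughter it was 0.97 (permutation adjusted p = 0.0416), since IGF1R fell more than IGF1 did, and from fetus to slaughter 0.92 (permutation adjusted p = 0.0675). The ranges of the stages overlapped, and the call between birth and slaughter was lost on leaving out any of 13 libraries in turn: newborn LG 05, LG 11, LG 22, MG 13 or MG 21, or slaughter LG 11, LG 14, LG 29, LG 36, MG 23, MG 31, MG 39 or MG 47 (differences from 0.84 to 0.96, permutation adjusted p from 0.0521 to 0.0683). Slaughter against fetus passed without slaughter LG 02 (1.06) or MG 32 (1.08), and without fetal MG 20 (1.11, permutation adjusted p = 0.0132).

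**Figure D3:**
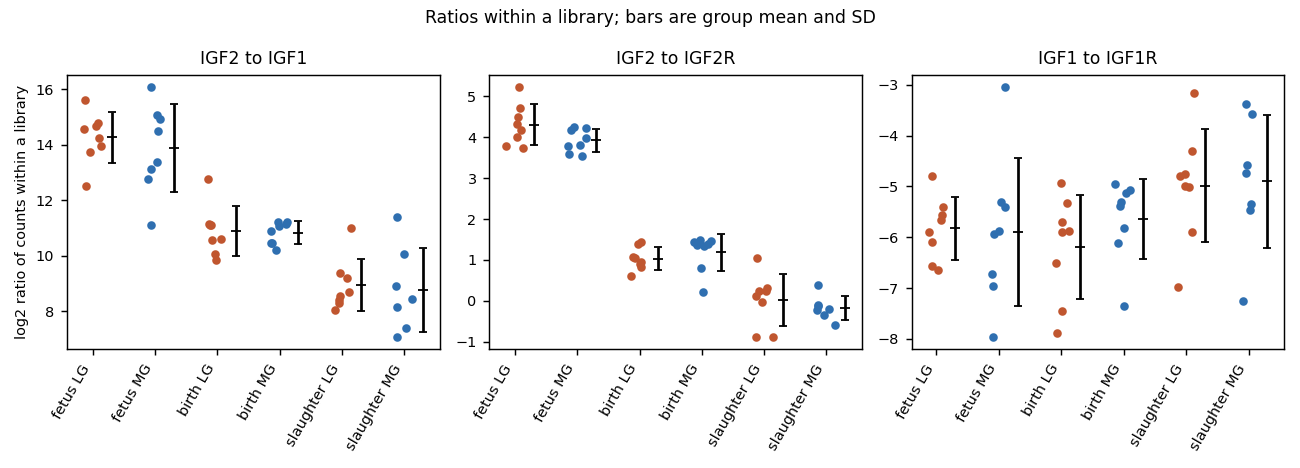
Log2 ratio of counts of 2 genes within a library, with 0.5 added to each count, for each of the 47 libraries by stage and LG (orange) or MG (blue), with the group mean and SD beside the points. IGF2 to IGF2R goes from a mean of 4.11 in fetuses to 1.11 at birth and -0.07 at slaughter, and LG and MG points overlap at each stage.

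The comparison of LG with MG asked whether slow gain of the F0 heifer in early gestation went with different levels in the muscle of its F1 daughters and F2 fetuses. None of the growth factor and receptor genes passed at any stage. All genes together gave 0% passed (0 of 12485 at birth, 0 of 12577 at slaughter and 0 of 14200 in fetuses, edgeR), with 515, 230 and 102 at an unadjusted p under 0.05. Neither DESeq2 (547, 253 and 215 genes at an unadjusted p under 0.05 at birth, at slaughter and in fetuses) nor voom of limma with sample weights (659, 365 and 2793) called a gene, so both also gave 0. In fetuses the methods differed widely before adjustment, with 102 genes by edgeR and 2793 by voom, and the reason was not tested. Ranges of LG and MG overlapped for all 5 genes at every stage, where non-overlap was seen in 0.00801% of genes at birth, 0.00795% at slaughter and 0% in fetuses. IGF1 at slaughter fell under the filter on low counts and was not tested there.

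In newborns, IGF1R had the lowest unadjusted p of the 5 genes. LG calves averaged 61.3 ± 16.8 CPM, with a lowest value of 50.3, a median of 55.9 and a highest of 101.3 in LG 05. MG calves averaged 48.6 ± 15.8 CPM, with a lowest of 35.5, a median of 47.9 and a highest of 84.5 in MG 21 (SD, n = 8 each). The LG library was the higher in 85.9% of LG and MG pairs, and the ranges overlapped. The log2 fold change of LG over MG was 0.33 (SE 0.18, 95% interval -0.03 to 0.70), with an edgeR p of 0.0718 and an edgeR adjusted p of 0.985. Without MG 21 it was 0.49 (edgeR adjusted p = 0.832), and without LG 05 it was 0.19 (edgeR adjusted p = 0.735). Limma voom with sample weights gave 0.36 (SE 0.13, adjusted p = 0.897).

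The other genes at birth lay closer to 0. IGF2 averaged 1582 ± 315 CPM in LG calves and 1751 ± 354 CPM in MG calves (n = 8 each, SD), a log2 fold change of -0.15 (interval -0.45 to 0.15, edgeR adjusted p = 0.985). By limma voom with sample weights IGF2 gave -0.26 (SE 0.12, adjusted p = 0.897). IGF2R averaged 769 ± 107 and 768 ± 165 CPM, and its interval ran from -0.27 to 0.27. GHR averaged 55.9 ± 12.0 and 54.4 ± 11.1 CPM, with an interval from -0.26 to 0.34. For IGF1 the interval was wide, from -0.77 to 0.59. These intervals leave room for differences of such sizes, and a missed threshold does not show that LG and MG calves were alike.

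In fetuses, GHR averaged 7.32 ± 2.88 CPM in LG, from 2.41 to 11.2 with a median of 7.30. In MG fetuses it averaged 11.6 ± 8.35 CPM, from 5.93 to 30.5 with a median of 7.89 (SD, n = 8 each). The medians were close, and the highest MG value was that of MG 20. The log2 fold change of LG over MG was -0.73 (SE 0.40, interval -1.57 to 0.10), with an edgeR p of 0.0822 and an edgeR adjusted p of 1.00. Without MG 20 it was -0.25 (edgeR adjusted p = 0.991), and limma voom with sample weights gave -0.03 (adjusted p = 0.955).

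Fetal IGF2 averaged 15538 ± 2828 CPM in the 8 LG libraries and 13226 ± 4367 CPM (SD) in the 8 MG libraries, a log2 fold change of 0.28 (interval -0.13 to 0.70, edgeR adjusted p = 1.00). Without MG 20 the value was 0.19. Fetal IGF1R was 46.9 ± 15.6 CPM in LG and 53.3 ± 17.4 CPM in MG fetuses, with an interval from -0.61 to 0.32. Fetal IGF2R was 808 ± 217 and 863 ± 247 CPM, with an interval from -0.46 to 0.33. Fetal IGF1 had 198 counts in all LG and 234 in all MG libraries, with an interval from -1.33 to 0.76. The log2 fold changes of LG over MG were -0.15 for IGF1R, -0.06 for IGF2R and -0.28 for IGF1. Without MG 20 they were -0.25, -0.15 and 0.15, so the sign of IGF1 turned. No fetal difference was larger than the spread between libraries.

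At slaughter no gene tested passed the threshold between LG and MG heifers. IGF2 averaged 221 ± 52.9 CPM in LG (SD, n = 8) and 214 ± 60.04 in MG (n = 7), with an interval of the log2 fold change from -0.31 to 0.44. GHR averaged 104 ± 19.5 and 104 ± 27.1 CPM, with an interval from -0.35 to 0.37. IGF1R averaged 13.9 ± 2.51 and 14.2 ± 2.18 CPM, with an interval from -0.28 to 0.22, the narrowest of the 4 genes tested there. IGF2R averaged 220 ± 64.4 and 236 ± 41.4 CPM, with an interval from -0.44 to 0.26. IGF1 had 57 counts over the LG and 67 over the MG libraries, with mean levels of 0.483 ± 0.318 and 0.572 ± 0.407 CPM.

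Whether the LG and MG difference itself changed between stages was tested in 1 model over 47 libraries. No gene of 15264 passed for any pair of stages (0% by edgeR), and so none of the 5 did. The lowest unadjusted edgeR p among them was 0.0508 for GHR, birth minus fetus, with a difference of 0.71 on the log2 scale (interval -0.00254 to 1.42, edgeR adjusted p = 1.00). By limma voom with sample weights the same difference was 0.090 (adjusted p = 0.906). In fetuses alone, the GHR log2 fold change of LG over MG went from -0.73 to -0.25 without MG 20. The difference between stages was not fitted without that library. For IGF1R, birth minus fetus, the difference was 0.52 by edgeR (SE 0.28) and 0.63 by voom (SE 0.20). It did not pass the threshold by either method. By voom this was the largest difference in size among the 5 genes for birth minus fetus. The ratios within a library also gave no call for LG against MG. The lowest p was that of IGF2 to IGF2R in fetuses, 4.30 ± 0.5001 in LG fetuses and 3.92 ± 0.279 in MG fetuses (SD, n = 8 each), a difference of 0.38 (exact permutation p = 0.0800, adjusted p = 0.160).

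**Figure D4:**
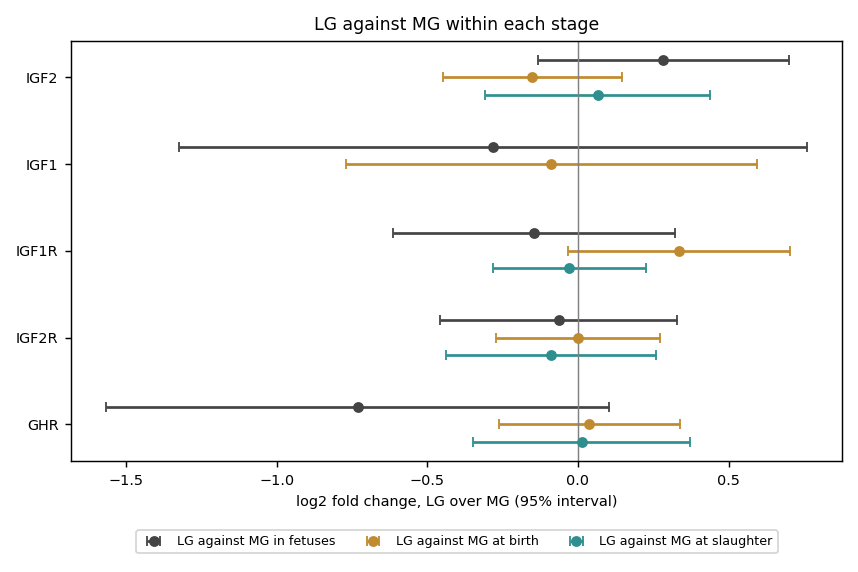
Log2 fold change of LG over MG for each gene in fetuses (grey), at birth (yellow) and at slaughter (teal), with 95% intervals from edgeR, and with IGF1 at slaughter not tested. Every interval includes 0, and the widest, that of fetal IGF1, runs from -1.33 to 0.76.

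The libraries of a stage differed more among fetuses than after birth. For GHR the SD of log2 CPM within LG and MG groups was 0.77 in fetuses, 0.31 at birth and 0.35 at slaughter. For IGF1R it was 0.58, 0.37 and 0.24, for IGF2R 0.46, 0.27 and 0.36, and for IGF2 0.43, 0.28 and 0.36. The median over 15264 genes was 0.61 in fetuses, 0.39 at birth and 0.39 at slaughter, so the wider fetal spread was shared by genes at large. IGF1 had the widest spread of the 5 at each stage, at 0.94, 0.74 and 1.13, on the few counts given above.

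Of 10 pairs of genes per stage, 4 passed in fetuses by Pearson's r and 2 by Spearman's rho, and 0 at birth and 0 at slaughter, with permutation p-values adjusted over 30 correlations. Genes at large were correlated in fetuses too: an r of at least the smallest that passed, 0.691 in size, was reached by 18.4% of all fetal pairs of 15264 genes, by 1.39% of newborn pairs and by 2.67% of those at slaughter. The count of 4 in 10 is therefore read as a description of these fetuses and not as particular to the growth factor genes. IGF1R ran with IGF2R, with r = 0.864 (permutation adjusted p = 0.00135) and rho = 0.750 (adjusted p = 0.0189), and r = 0.762 without the 2 fetuses farthest out in IGF1R, LG 41 and MG 20. An r of that size over all 16 was reached by 3.20% of all pairs of genes. GHR ran against IGF2, with r = -0.835 (permutation adjusted p = 0.00135) and rho = -0.662 (adjusted p = 0.0514), a size of r reached by 5.16% of all pairs. Without the 2 fetuses farthest out in IGF2, again MG 20 and LG 41, r was -0.610, and without MG 20 alone it was -0.699 (permutation adjusted p = 0.0301). MG 20 had the lowest IGF2 and the highest GHR of the fetuses, and LG 41 the highest IGF2 and the lowest GHR.

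GHR and IGF1 varied in the same sense, with r = 0.718 (permutation adjusted p = 0.0175) and rho = 0.791 (adjusted p = 0.0144), and r = 0.572 without the 2 fetuses farthest out in IGF1. Without MG 20 alone, r was 0.604 and did not pass (permutation adjusted p = 0.105). IGF2 ran against IGF1, with r = -0.691 (permutation adjusted p = 0.0193) and rho = -0.676 (adjusted p = 0.0514). That relation was -0.507 without the 2 fetuses farthest out and -0.565 without MG 20 (permutation adjusted p = 0.130), so its call rests on those libraries. IGF1R with GHR was 0.132 over 16 fetuses and 0.733 without MG 20 (permutation adjusted p = 0.0301). Without both LG 41 and MG 20 it was 0.461, and without MG 20, LG 41 and MG 45 it was 0.386, so the value of 0.733 rests on LG 41. IGF2 with IGF2R was 0.512 over 16 fetuses (permutation adjusted p = 0.146) and 0.130 without MG 20 (permutation adjusted p = 0.742).

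The first principal component of fetuses correlated with IGF2 (r = -0.865, rho = -0.800), with GHR (r = 0.788, rho = 0.662) and with IGF1 (r = 0.702, rho = 0.647), with permutation adjusted p-values by r of 6e-04, 0.00307 and 0.00877 over 15 correlations. Most genes followed this component: the median size of r over 15259 other genes was 0.659, and 18.0% of them reached the size seen for IGF2, 31.9% that of GHR and 44.98% that of IGF1. Without its 2 farthest fetuses r was -0.735, 0.502 and 0.528 for IGF2, GHR and IGF1. Without MG 20 alone the values were -0.791, 0.658 and 0.584. What sets the fetal libraries along this axis was not tested. At birth the first component held 13.5% of the variance. It correlated with IGF2 by r (-0.576, permutation adjusted p = 0.0478), a size reached by 19.2% of other genes. By rho (-0.524, permutation adjusted p = 0.0847) this did not pass. At slaughter the first component, which held 17.03% of the variance, correlated with IGF1 (r = 0.743, rho = 0.782, permutation adjusted p = 0.00765) and with IGF1R (r = -0.699, rho = -0.664, permutation adjusted p = 0.00951). These sizes were reached by 11.4% and 15.9% of other genes. Without its 2 farthest libraries the values were 0.787 and -0.435.

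**Figure D5:**
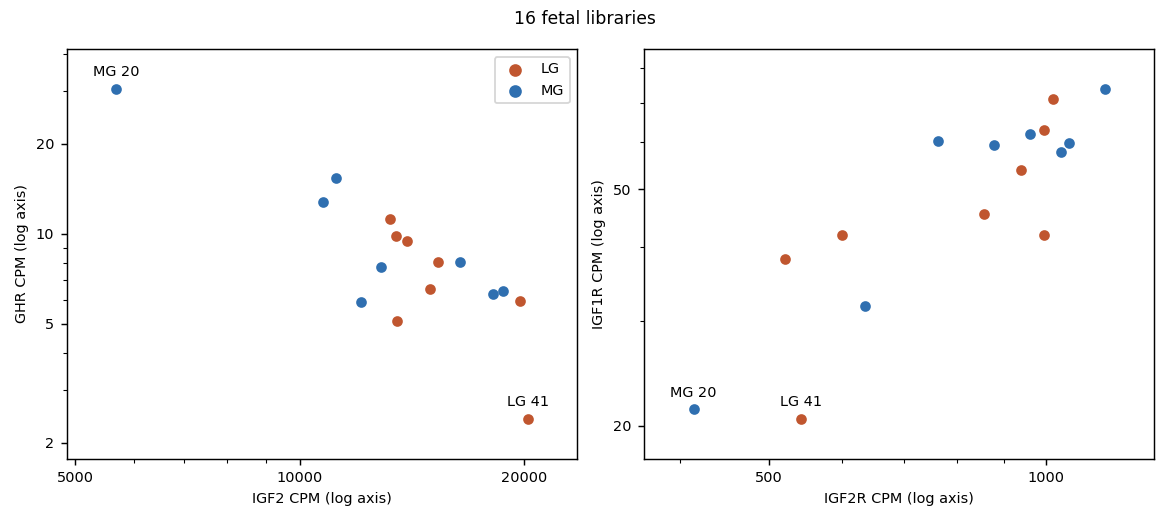
The 16 fetal libraries, LG in orange and MG in blue, with GHR against IGF2 on the left and IGF1R against IGF2R on the right (CPM on TMM-scaled library sizes, log axes). MG 20 and LG 41 lie at the ends of the left cloud and at the low end of the right one.

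Likeness to other genes was described over all 47 libraries, which differ mainly by stage, so it is a description of shared stage pattern and is given without a test. Of 15263 genes compared, those most like IGF2 in log2 CPM were ENSBTAG00000052720 (r = 0.987) and ENSBTAG00000047418 (r = 0.986). The first averaged 478 ± 153 CPM in fetal muscle, 125 ± 13.2 in newborns and 30.4 ± 3.45 in grown heifers. Those most like GHR were ENSBTAG00000006724 (r = 0.981) and ENSBTAG00000017416 (r = 0.978), of which the first averaged 6.38 ± 3.21, 47.8 ± 9.12 and 116 ± 25.2 CPM. The gene most like IGF1R was IGF2R (r = 0.937), and that most like IGF2R reached r = 0.944. The gene most like IGF1 reached r = 0.706. After the group means were subtracted, the highest r with another gene was 0.751 for IGF2, 0.699 for IGF1, 0.869 for IGF1R, 0.825 for IGF2R and 0.901 for GHR.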

How the data were processed

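PolyA RNA of muscle was made into libraries that do not mark strand and read as pairs of 150 bp, per the labels' protocols. The deposited values are whole-number counts per gene, in a table for each of 3 stages. STAR 2.7.3a, edgeR 3.24.3, FastQC 0.11.8 and MultiQC 1.9 are named in the submitters' processing notes without a role. How reads were assigned to genes, and on which build and annotation, is not given in the sources used here. The slaughter table has no heading over its identifiers, so its headings were read as starting at the first value column. The number of per-sample columns not used was 0.

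Counts were analysed in R 4.3.3 with edgeR 4.0.16 (filterByExpr, TMM, robust quasi-likelihood test) and Benjamini-Hochberg adjustment at 0.05 over all genes. Stages were compared on their own libraries through the means of LG and MG, LG with MG within a stage, and the interaction over 47 libraries. Standard errors were derived from the F statistic. Log2 CPM used a prior count of 0.5. Ratios and correlations used permutation tests (numpy 2.4.6), exact for LG against MG and otherwise with 100000 resamples. Alternatives were DESeq2 1.42.0, its size factors, library totals, no filter, 1 model over 47 libraries, LG or MG alone, a block over library numbers, limma 3.58.1 voom with sample weights, 1 added to each count in ratios, and each library left out. Fetal correlations without MG 20 and by library totals were added after seeing the data.

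The genes and lists were chosen with earlier results of these data known. The naming rule was the 5 genes everywhere, for each gene the 2 most alike over all libraries and the 2 most alike within groups, and libraries set apart by a gap. Pathway and marker lists by symbol could not be run, as the tables hold identifiers only. Identifiers of the most alike genes were printed for IGF2 and GHR only. No genome was used. No libraries were merged, since the lowest chi-square per degree of freedom among 161 pairs of libraries within groups was 23.2. Shares of all genes and of all pairs of genes with correlations or gaps of the same size were counted after seeing the data. The scripts were tested on simulated data.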

Additional observations from a re-analysis of the deposited data

Results flagged for a closer look

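In 6 of 30 sets of 7 or 8 values (1 gene in 1 group), 1 library was set apart from the rest by a gap that is large for the range of its group. Chance gives about 1 in 20 for values drawn from a normal distribution, and over all genes such a gap was found in 12.6% of 91046 sets of this kind, so the count is not read as a result. For IGF1R this held in both newborn groups: LG 05 had 101.3 CPM, where the next highest LG calf had 63.3, and MG 21 had 84.5 CPM, where the next highest MG calf had 51.1. For IGF2, newborn LG 25 had 2299 CPM, against 1652 in the next. For GHR, fetal MG 20 had 30.5 CPM, against 15.4 in the next MG fetus, and slaughter LG 07 had the lowest level of its group, 60.4 CPM, against 93.2 in the next. For IGF1, fetal LG 29 had 2.26 CPM, against 0.977 in the next LG fetus, on 65 counts.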

How the results depend on the processing

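Under the alternatives other than leaving out a library, 314 values kept direction and side of the threshold, and 31 did not. IGF2 and GHR kept every stage call. By library totals, birth against fetus gave IGF1 -0.95 and IGF2R -0.96, now past the threshold, and IGF1R -0.71, with the sign turned. IGF1 lost its call at slaughter against birth with MG alone (-0.72) and was not tested there with LG alone. At slaughter against fetus IGF1 lost its call with LG alone (-0.82) or MG alone (-0.92). At birth against fetus LG alone turned IGF1 to 0.052, while MG alone turned IGF1R to -0.15. Whether library numbers mark animals is not stated. Shared numbers carried the same treatment in 6 of 6, 7 of 7 and 15 of 15 cases (slaughter with birth, birth with fetus, slaughter with fetus). Same-numbered libraries deviated together (r over 0.1) in 1, 1 and 4 of them and correlated best with their own number in 3, 2 and 2. Weak correlation between stages does not exclude shared animals or descent, so this check cannot decide whether libraries are paired. The main tests treat the libraries as unrelated. With the replicate block, IGF1 gave -0.75 at slaughter against birth and -0.80 at slaughter against fetus, neither passing, and 0.26 at birth against fetus, and IGF1R gave -0.00071 at birth against fetus. The same libraries without the block gave IGF1 -0.86 at slaughter against fetus, which passed (edgeR adjusted p = 0.0304, against 0.0673 with the block), -0.83 at slaughter against birth, which did not pass, and 0.053 for IGF1 and -0.053 for IGF1R at birth against fetus. The block moved genes called from 6477 to 7145 at slaughter against birth. At birth against fetus it moved them from 10336 to 10587, and at slaughter against fetus from 12399 to 12447.

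For LG against MG, signs of values near 0 turned. By library totals IGF2R at birth was -0.014, GHR at birth -0.0017 and GHR at slaughter -0.0093. By voom IGF2R at birth was -0.037 and fetal IGF1 0.24, and the difference of effects was -0.073 for GHR (birth minus slaughter), -0.40 for IGF1 (birth minus fetus) and 0.0035 for IGF2R (slaughter minus fetus). On the libraries of both stages alone, slaughter minus fetus gave 0.047 for IGF1 and 0.016 for IGF2R. In fetuses 1 model over 47 libraries called 2 genes, neither among the 5. With 1 added to each count, IGF1 to IGF1R at slaughter against fetus was 1.01 and passed. By library totals, fetal r was -0.630 for IGF2 with IGF1, no longer passing, 0.208 for IGF1 with IGF1R, 0.156 for IGF1 with IGF2R and 0.205 for IGF2R with GHR.

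With a library left out, 1177 values kept direction and side of the threshold. In 56 the sign turned, while 27 lost their call and 4 gained one with the sign kept. Leaving out each library in turn gave these ranges. IGF1 ran from -0.13 to 0.15 at birth against fetus and from -0.96 to -0.61 at slaughter against fetus. For LG against MG, IGF1 ran from -0.28 to 0.069, IGF2R from -0.061 to 0.066 and GHR from -0.043 to 0.093 at birth. IGF2 ran from -0.047 to 0.16, IGF1R from -0.077 to 0.022 and GHR from -0.064 to 0.10 at slaughter, and fetal IGF1 from -0.66 to 0.15. The ratio of IGF2 to IGF1 ran from -0.20 to 0.21 at birth, -0.12 to 0.61 at slaughter and -0.0072 to 0.70 in fetuses. The ratio of IGF1 to IGF1R ran from 0.84 to 1.14 at slaughter against birth, -0.19 to 0.13 at birth against fetus, 0.78 to 1.11 at slaughter against fetus, and, for LG against MG, -0.47 to 0.20 at slaughter and -0.22 to 0.49 in fetuses. Without fetal MG 20, r was -0.565 for IGF2 with IGF1, -0.272 for IGF2 with IGF1R, 0.341 for IGF1 with IGF1R, 0.234 for IGF1 with IGF2R, 0.604 for IGF1 with GHR, 0.733 for IGF1R with GHR and 0.422 for IGF2R with GHR. The cause of these changes was not tested. Depth limits IGF1 alone of the 5 genes, with 1 to 78 counts per library.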
